A study of Mus musculus with 6 samples.

Results

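The genes described here are 4 ligands made by somatic cells of the fetal testis and 5 receptors that read them: Gdnf with its receptors Gfra1 and Ret, Kitl with Kit, Cxcl12 with Cxcr4, and Lif with Lifr. They were taken by gene symbol, and all 9 were found among the 42747 genes of the count table. RNA was sequenced from whole testes of mouse fetuses at E16.5, with 3 mice labelled cKO and 3 labelled WT. The title of the series places the study on the kinase CK1α in Sertoli cells, the somatic cells that enclose germ cells in the testis cords. The cKO testes were therefore read as lacking CK1α in Sertoli cells, and the WT testes as their controls. The labels do not state the strain, the alleles or the Cre driver. Polyadenylated RNA was sequenced on an Illumina NovaSeq.

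These ligands form the signalling niche of male germ cells. GDNF binds the co-receptor GFRA1, which presents it to the receptor tyrosine kinase RET, and in the postnatal testis this signal from Sertoli and peritubular myoid cells maintains spermatogonial stem cells. KIT ligand (stem cell factor) and CXCL12 guide and keep alive primordial germ cells through the tyrosine kinase KIT and the chemokine receptor CXCR4. LIF signals through LIFR and its partner gp130 to STAT3 and supports germ cells in culture. At E16.5 male germ cells are quiescent prospermatogonia.

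In cKO testes Gdnf fell 3.49-fold and Lif rose 4.66-fold, and the other 7 genes were not called. In edgeR (quasi-likelihood F test, Benjamini-Hochberg adjustment over the 18383 genes tested), 1 of the 9 was called higher (1.5% of all tested genes were) and 1 lower (1.84% of all tested genes). At an unadjusted p under 0.05 the counts were 2 higher and 1 lower, and DESeq2 and limma-voom each also called 1 higher and 1 lower. All 9 genes passed the filter on low counts. Among the 5 receptors edgeR, DESeq2 and limma-voom each called 0, and 1 of them, Gfra1, had an unadjusted p under 0.05.

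The sequence before the start site is shown for Gdnf and Lif, the genes that were called. RefSeq's promoter table (GRCm38.p6) held windows for 8 of the 9 genes, all but Ret, and the 250 bases before each annotated start are printed 5′ to 3′. Gdnf has an upstream start (chr15:7809798-7810047, plus strand) and a downstream start (chr15:7813477-7813726, plus strand), and Lif has a single window (chr11:4257318-4257567, plus strand). Capitals mark every match, on either strand, to TATAAA (the TATA box), TGACG (a half-site of the cAMP response element), CTTTGA or CTTTGT (TCF/LEF), TGANTCA (AP-1) and TTCNNNGAA (STAT).
Gdnf upstream start: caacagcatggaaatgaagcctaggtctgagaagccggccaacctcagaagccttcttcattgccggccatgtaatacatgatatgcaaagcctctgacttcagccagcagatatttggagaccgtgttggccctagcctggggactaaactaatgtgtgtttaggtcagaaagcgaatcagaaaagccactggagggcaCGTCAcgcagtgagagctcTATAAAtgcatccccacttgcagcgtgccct
Gdnf downstream start: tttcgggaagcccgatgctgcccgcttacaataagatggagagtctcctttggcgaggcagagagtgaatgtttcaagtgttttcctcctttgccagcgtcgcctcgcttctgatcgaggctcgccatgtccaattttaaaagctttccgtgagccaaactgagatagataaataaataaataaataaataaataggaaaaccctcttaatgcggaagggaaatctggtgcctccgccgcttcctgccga
Lif: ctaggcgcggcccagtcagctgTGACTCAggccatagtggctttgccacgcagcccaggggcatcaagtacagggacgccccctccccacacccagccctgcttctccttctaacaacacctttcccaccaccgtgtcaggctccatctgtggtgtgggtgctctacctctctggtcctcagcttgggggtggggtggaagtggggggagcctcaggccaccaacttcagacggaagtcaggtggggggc
The upstream Gdnf window held TATAAA from base -31 to -26 before the start and CGTCA, the half-site on the opposite strand, from -50 to -46. Among 32851 promoter windows of this length, TATAAA was present in 12.4% and TGACG in 17.8%. The downstream Gdnf window held no match. The Lif window held TGACTCA, an AP-1 match, from -228 to -222, and 6.75% of windows held TGANTCA. Neither gene's windows held a match to the TCF/LEF letters, which 27.6% of all windows held, or to the STAT letters, held by 7.02%. These matches describe letters and are no evidence of binding.

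Levels of different genes are compared in FPKM, the authors' value scaled to gene length and library size. In cKO testes the order of mean FPKM was Cxcl12 (60.3 ± 12.4), Kitl (32.2 ± 5.50), Cxcr4 (18.6 ± 9.54), Lifr (9.97 ± 1.35), Kit (8.66 ± 1.29), Gdnf (3.17 ± 0.591), Gfra1 (1.43 ± 0.0821), Lif (1.23 ± 0.268) and Ret (1.13 ± 0.209; SD, n = 3). In WT testes it was Cxcl12 (59.5 ± 3.85), Kitl (26.6 ± 1.75), Cxcr4 (12.1 ± 2.58), Gdnf (11.0 ± 2.24), Lifr (11.0 ± 0.616), Kit (7.73 ± 1.57), Ret (1.51 ± 0.189), Gfra1 (0.899 ± 0.0921) and Lif (0.262 ± 0.0231; SD, n = 3). Neighbours in the order whose libraries overlapped were Kitl with Cxcr4, Lifr with Kit, Gfra1 with Lif and Lif with Ret in cKO, and Cxcr4 with Gdnf and Gdnf with Lifr in WT. Gdnf thus ranked sixth of the 9 in cKO and shared the middle ranks with Cxcr4 and Lifr in WT. Its mean FPKM lay above that of 39.2% of tested genes in cKO testes and of 67.2% in WT testes. That of Lif lay above 23.4% of tested genes in cKO and 3.32% in WT, where each library held 18 or 19 counts.

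**Figure D1:**
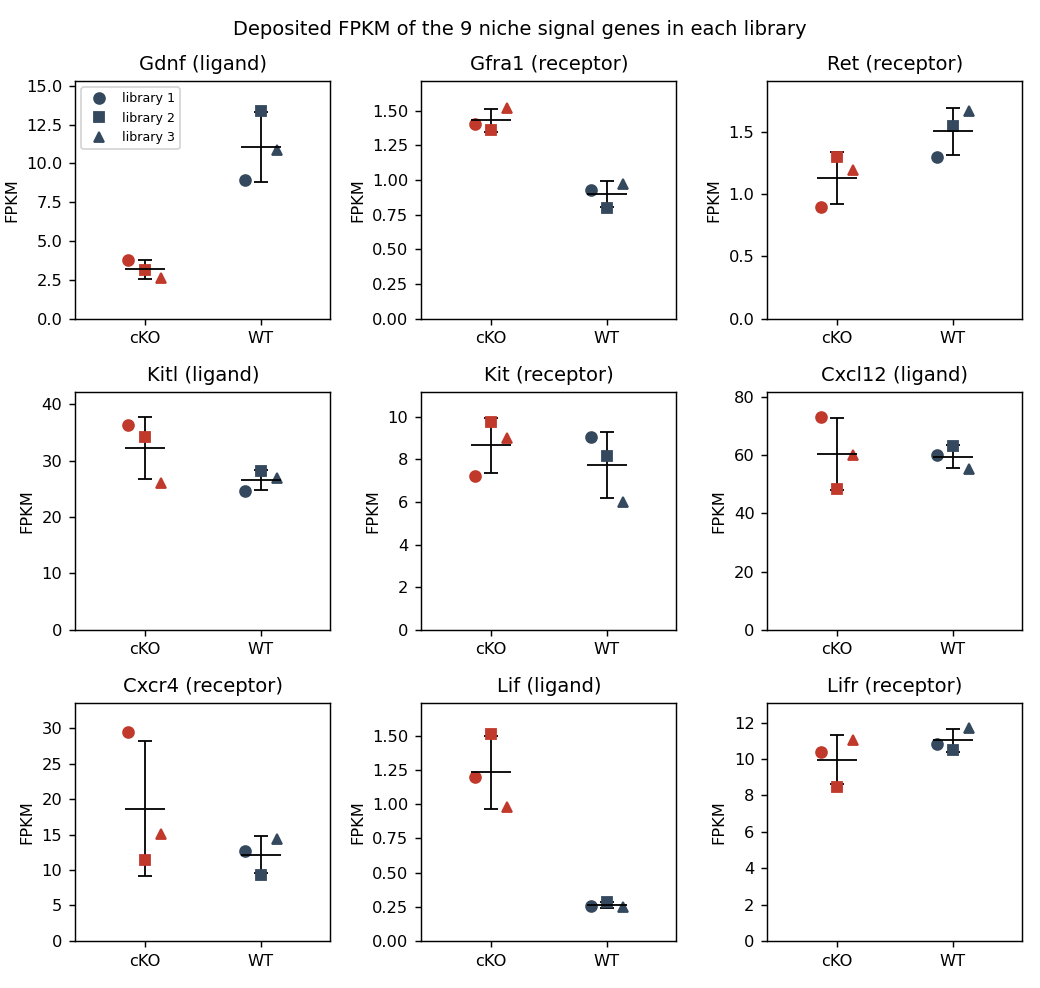
Deposited FPKM (vertical axes, each from 0) of the 9 niche genes in 3 cKO (red) and 3 WT (dark) libraries. Symbols mark the library number, horizontal lines the mean and bars the SD. Groups stand apart for Gdnf, Gfra1, Ret and Lif, as they do in CPM for 21.6% of all tested genes. Of these members edgeR called only Gdnf and Lif. For Cxcr4, cKO library 1 stands alone at 29.5 FPKM.

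Gdnf, the ligand of the GFRA1 and RET complex, had 3.79, 3.10 and 2.62 FPKM in cKO testes, against 8.91, 13.4 and 10.9 FPKM in WT testes. Every cKO library lay below every WT library. The log2 fold change was -1.80 (SE 0.198, 95% interval -2.24 to -1.37, edgeR adjusted p = 0.00048). Among called genes 76, Gdnf included, fell by at least as much. In the C57BL/6NJ assembly, whose gene identifiers the count table uses, Gdnf lies on the plus strand of chromosome 15 from 5019189 to 5043229. Its neighbours in pattern over the 6 libraries were Masp1 and Pak3, with root mean square differences of 0.155 and 0.188 in centred log2 CPM, against a median of 0.949 over 12100 genes.

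The listed markers of Sertoli cells, a known source of GDNF, were lower in cKO testes, as was Gdnf. All 12 listed Sertoli cell markers were called lower by edgeR, DESeq2 and limma-voom, where edgeR called 1.84% of all tested genes lower. The list was drawn up with earlier results of these data known. Its 12 calls therefore do not stand for Sertoli cell transcripts in general. The median log2 fold change of these markers was -2.21, beside 0.0026 over all tested genes. Their summed FPKM was 413, 518 and 309 in cKO testes and 1316, 1752 and 1497 in WT testes. Amh, the hormone that regresses the Müllerian ducts, and Clu, which encodes clusterin, were the most abundant, with log2 fold changes of -2.41 and -0.86 (edgeR adjusted p = 0.00382 and 0.0124). Peritubular myoid cells are another source known in the adult. Their 6 markers summed to 287, 234 and 283 FPKM in cKO and 294, 245 and 305 FPKM in WT. EdgeR called 1 of them higher (Des), beside 1.5% of all tested genes, and the median log2 fold change was 0.016. The abundant members Acta2, the smooth muscle actin, and Tagln, an actin-binding protein, stood at -0.19 and 0.020 (edgeR adjusted p = 0.634 and 0.96). The part of these cells in the fall of Gdnf was not tested, and in whole testes fewer cells of a type and less RNA per cell cannot be told apart.

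Gfra1, the co-receptor that binds GDNF, had 1.41, 1.36 and 1.52 FPKM in cKO testes, against 0.927, 0.796 and 0.973 FPKM in WT testes. The cKO libraries lay above the WT libraries, as groups did not overlap in either direction for 21.6% of all tested genes. The log2 fold change of 0.66 (SE 0.232, 95% interval 0.15 to 1.17) did not pass adjustment (edgeR adjusted p = 0.183). Ret, the kinase of the complex, had 0.897, 1.30 and 1.2 FPKM in cKO testes, against 1.30, 1.55 and 1.67 FPKM in WT testes. Its cKO values lay below its WT values, by little between cKO library 2 and WT library 1, and the log2 fold change was -0.42 (SE 0.225, 95% interval -0.91 to 0.075, edgeR adjusted p = 0.409). The antisense gene Gm16277 overlaps the 3′ edge of Gfra1, and the strand setting of the counting is not stated. Per library Ret had 93 to 142 counts in cKO and 144 to 191 in WT, and Gfra1 113 to 146 in cKO and 66 to 90 in WT. Gfra1 lies on chromosome 19 from 60107855 to 60345550 and Ret on chromosome 6 from 124007284 to 124056702, both on the minus strand in C57BL/6NJ.

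None of the 9 tested genes among other ligands and receptors of the GDNF family was called by edgeR or limma-voom, and DESeq2 called 1 higher (before adjustment, 2 higher and 1 lower had p under 0.05; list median 0.11). Ncam1, an alternative partner of GFRA1, had 18.3, 18.5 and 19.9 FPKM in cKO testes, against 13.1, 14.5 and 15.1 FPKM in WT testes (log2 fold change 0.40, edgeR adjusted p = 0.0858). Sdc3, a syndecan that binds GDNF, stood at -0.28 (edgeR adjusted p = 0.287). Nrtn, the ligand neurturin, had 6.0, 17.4 and 9.37 FPKM in cKO testes and 6.64, 7.23 and 4.86 FPKM in WT testes (0.80, edgeR adjusted p = 0.298), a value that was 0.30 without cKO library 2.

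Genes known to respond to GDNF in cultured spermatogonia went both ways. Of 11 tested, edgeR and limma-voom each called 3 lower and 0 higher, while DESeq2 called 3 lower and 1 higher (before adjustment, 3 lower and 2 higher had p under 0.05). Over all tested genes edgeR called 1.84% lower and 1.5% higher. The list median was -0.17. Dusp6, a phosphatase that switches off ERK, had 13.2, 16.2 and 12.5 FPKM in cKO testes, against 25.8, 28.8 and 21.9 FPKM in WT testes (log2 fold change -0.87, SE 0.15, edgeR adjusted p = 0.00827). Mycn, a transcription factor gene, had 9.22, 10.1 and 7.68 FPKM in cKO testes, against 14.3, 17.2 and 14.5 FPKM in WT testes (-0.77, SE 0.147, edgeR adjusted p = 0.0146). Spry4, a feedback inhibitor of receptor tyrosine kinases, had 3.91, 3.02 and 3.31 FPKM in cKO testes, against 5.59, 5.48 and 6.42 FPKM in WT testes (-0.78, SE 0.163, edgeR adjusted p = 0.025). The groups did not overlap for these 3 genes, nor for 21.6% of all tested genes. Genes picked by their call tend to separate in this way, so it is no further support. All 3 are also known targets of other growth factor receptors and are not specific to germ cells.

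Over the 16 alternative fits the log2 fold change stayed between -0.99 and -0.77 for Dusp6, -0.86 and -0.67 for Mycn and -0.89 and -0.63 for Spry4, while some fits lost the call. Leaving out cKO library 3 or WT library 1, 2 or 3 also took the calls over all genes to 304, 323, 370 and 272 in that order, against 615 with all 6 libraries, and leaving out cKO library 1 or 2 took them to 715 and 723. Dusp6 lost its call without cKO library 3 (edgeR adjusted p = 0.0658) or WT library 2 (0.0512). Mycn lost it without cKO library 3 (edgeR adjusted p = 0.0914) or WT library 1, 2 or 3 (0.0536, 0.0817 and 0.058). Spry4 lost it without cKO library 3 (edgeR adjusted p = 0.12) or WT library 1, 2 or 3 (0.0939, 0.0712 and 0.154), and in limma on log2(FPKM + 0.1) or log2(FPKM + 1) (limma adjusted p = 0.0701 and 0.0727). Etv5 and Bcl6b, the transcription factor genes best known as GDNF targets in stem cell cultures, had log2 fold changes of -0.17 and 0.018 (edgeR adjusted p = 0.756 and 0.977). Id4, a stem cell marker, had 4.99, 6.32 and 6.22 FPKM in cKO testes, against 3.80, 3.18 and 3.57 FPKM in WT testes (0.73, edgeR adjusted p = 0.118). Etv5, Bcl6b and Id4 were chosen after their values were seen.

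**Figure D2:**
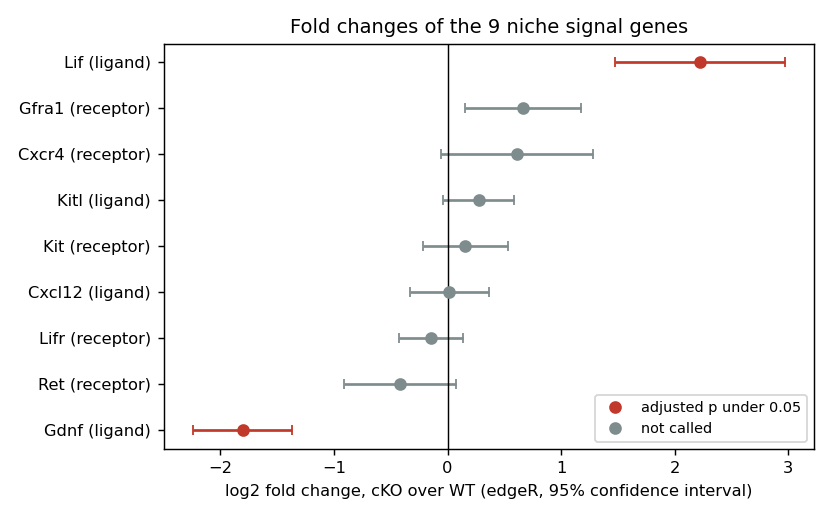
Log2 fold changes, cKO over WT (horizontal axis), of the 9 niche genes with 95% intervals from edgeR. Red points passed an adjusted p of 0.05, which were Lif at 2.22 and Gdnf at -1.80, and the interval of Gfra1 (0.15 to 1.17) lay above 0 without passing adjustment.

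Kitl, which encodes KIT ligand, had 36.4, 34.2 and 26.0 FPKM in cKO testes, against 24.7, 28.1 and 26.9 FPKM in WT testes. Libraries 1 and 2 of cKO lay above all WT libraries, and library 3 lay among them. The log2 fold change was 0.27 (SE 0.14, 95% interval -0.036 to 0.58, edgeR adjusted p = 0.388), and it ran from 0.18 without cKO library 1 to 0.41 without cKO library 3. Kitl lies on chromosome 10 from 105404476 to 105502604 (plus strand) and Kit on chromosome 5 from 78764456 to 78851376 (plus strand) in C57BL/6NJ. Kitl makes membrane-bound and soluble forms by splicing, which gene counts do not separate.

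Kit, its receptor on germ cells, had 7.24, 9.74 and 9.0 FPKM in cKO testes, against 9.05, 8.16 and 5.99 FPKM in WT testes. The groups overlapped in part, with cKO library 2 above every WT library and WT library 3 below every cKO library, and the log2 fold change was 0.16 (SE 0.169, 95% interval -0.21 to 0.53, edgeR adjusted p = 0.711). The 13 germ cell markers summed to 301, 550 and 429 FPKM in cKO testes and 652, 463 and 520 FPKM in WT testes. Of the 12 tested, edgeR called 1 lower (Mov10l1), DESeq2 2 and limma-voom 0, and none was called higher by these tools. Of all tested genes edgeR called 1.84% lower. Before adjustment 3 of the markers were lower with p under 0.05, 11 of the 12 log2 fold changes were negative, and the median was -0.36. The part of germ cell content in the values of Kit was not tested. Mael and Piwil2, piRNA pathway genes and the most abundant of these markers, stood at -0.42 and -0.38 (edgeR adjusted p = 0.24 and 0.371). Nanos2, a defining gene of male germ cells at this age, was listed at 0 to 0.676 FPKM in cKO and 0 to 0.352 FPKM in WT. These values rest on 0, 16 and 1 counts in cKO and 9, 1 and 0 in WT. Nanos2 did not pass the filter on low counts, and whether its row measures the gene's expression was not tested. Mast cells also carry KIT. Their 8 markers summed to 19.8, 5.16 and 9.0 FPKM in cKO testes and 3.85, 6.19 and 4.62 FPKM in WT testes, with Mcpt4 and Fcer1a at 0 in all 6 libraries. The part of mast cells in the values of Kit was not tested.

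Of 18 tested genes of KIT signalling and its regulators, edgeR, DESeq2 and limma-voom each called 1 higher and 0 lower (before adjustment, 1 higher and 0 lower had p under 0.05; list median -0.091). For comparison, edgeR called 1.5% of all tested genes higher. The called gene of this list was Pik3r1, the regulatory subunit of PI3-kinase, which KIT recruits. It had 17.3, 14.5 and 16.1 FPKM in cKO testes, against 8.20, 10.5 and 11.1 FPKM in WT testes (log2 fold change 0.68, SE 0.137, edgeR adjusted p = 0.02). Groups did not overlap, nor did they for 21.6% of all tested genes. The call was lost without cKO library 3 (edgeR adjusted p = 0.0963), WT library 1 (0.0963) or WT library 2 (0.0688), and in limma on log2(FPKM + 0.1) or log2(FPKM + 1) (limma adjusted p = 0.061 and 0.0587), with log2 fold changes of 0.57 to 0.77 over the 16 fits. The adaptor Sh2b3, which restrains KIT, stood at -0.25 and the catalytic subunit Pik3ca at -0.22 (edgeR adjusted p = 0.367 and 0.369). Sohlh1, a germ cell factor that activates Kit after birth, had 21.8, 66.9 and 42.7 FPKM in cKO testes and 39.7, 40.1 and 33.7 FPKM in WT testes, and it was chosen after its values were seen.

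Cxcl12, the most abundant of the 9 genes, had 72.9, 48.2 and 59.9 FPKM in cKO testes, against 60.1, 63.0 and 55.3 FPKM in WT testes. The cKO libraries lay on both sides of the WT libraries. The log2 fold change was 0.016 (SE 0.157, 95% interval -0.33 to 0.36, edgeR adjusted p = 0.971), and its sign changed with the scaling and with the library left out, being -0.0077 with library totals alone and -0.14 without cKO library 1.

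Cxcr4, the receptor of CXCL12, had 29.5, 11.4 and 15.0 FPKM in cKO testes, against 12.7, 9.35 and 14.4 FPKM in WT testes. Library 1 of cKO stood alone, and the other cKO libraries lay within or just above the WT range. The log2 fold change of 0.61 (SE 0.304, 95% interval -0.059 to 1.28, edgeR adjusted p = 0.371) was 0.12 without cKO library 1. Cxcl12 lies on chromosome 6 from 122914398 to 122927229 (plus strand) and Cxcr4 on chromosome 1 from 136797810 to 136804418 (minus strand) in C57BL/6NJ. The coefficient of variation between cKO libraries was 51.2%, the largest of the 9 genes, beside 21.3% in WT. CXCR4 is also carried by endothelial cells and macrophages. The 8 endothelial markers summed to 168, 123 and 154 FPKM in cKO and 134, 146 and 160 FPKM in WT, and 6 macrophage markers to 17.6, 12.7 and 16.2 FPKM in cKO and 14.4, 13.1 and 18.8 FPKM in WT. Sums for mast cells, fetal Leydig cells and the mesonephros and ducts were also highest in cKO library 1. Those for Sertoli cells, germ cells, interstitial progenitors, peritubular myoid cells, and nerve and glia were not. The mast cell sum was 19.8 FPKM in cKO library 1 and 3.85 to 9.0 FPKM in the other libraries. The part of any of these cells in the value of cKO library 1 was not tested. Cdh5 and Eng were the most abundant endothelial markers (log2 fold changes -0.12 and -0.15), and Csf1r and Cd68 the most abundant macrophage markers (0.37 and -0.44), and edgeR called none of these 4. Of the whole lists it called 1 endothelial marker higher (Kdr), beside 1.5% of all tested genes. It called 0 of 6 macrophage markers, of which 1 had an unadjusted p under 0.05 and DESeq2 and limma-voom called 0.

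None of 12 tested genes of the CXCL12 pathway was called by edgeR or limma-voom, and DESeq2 called 1 higher (before adjustment, 2 higher and 1 lower had p under 0.05; list median 0.12). Gnai1, a G protein subunit of the type that CXCR4 couples to, had 19.1, 20.3 and 18.7 FPKM in cKO testes, against 12.4, 15.5 and 13.1 FPKM in WT testes (log2 fold change 0.50, edgeR adjusted p = 0.0678). Rgs16, which shortens G protein signals, stood at 0.62 and Hif1a, an oxygen-sensing factor that activates Cxcr4, at -0.34 (edgeR adjusted p = 0.17 and 0.183). Ackr3, the scavenger receptor of CXCL12, had 9.71, 3.61 and 4.52 FPKM in cKO testes and 5.74, 5.56 and 6.38 FPKM in WT testes. As with Cxcr4, library 1 was the highest of the cKO testes for Ackr3, which was chosen after its values were seen.

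Lif, a cytokine of the interleukin-6 family, had 1.2, 1.52 and 0.984 FPKM in cKO testes, against 0.253, 0.288 and 0.245 FPKM in WT testes. Each cKO library was well above each WT library, though Lif stayed among the rarer transcripts in both groups. The counts behind these values were 80, 100 and 75 in cKO and 18, 19 and 18 in WT. Its log2 fold change was 2.22 (SE 0.34, 95% interval 1.47 to 2.97, edgeR adjusted p = 0.00408), and 43 called genes, Lif included, rose by at least as much. Its nearest patterns were 9030617O03Rik and Tnfrsf19, a receptor of the TNF family, with root mean square differences of 0.137 and 0.193 against a median of 1.07. Lif lies on the plus strand of chromosome 11 from 1273900 to 1291663 (C57BL/6NJ). The part of other cell types, mast cells among them, in the rise of Lif was not tested.

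Lifr, the receptor subunit that binds LIF, had 10.4, 8.45 and 11.1 FPKM in cKO testes, against 10.8, 10.5 and 11.7 FPKM in WT testes. Lifr lies on chromosome 15 from 4301837 to 4373395 (plus strand, C57BL/6NJ). The groups overlapped, and the log2 fold change was -0.15 (SE 0.128, 95% interval -0.43 to 0.13, edgeR adjusted p = 0.628). Of 15 tested genes of the LIF and interleukin-6 family, the 3 tools each called 1 higher and 0 lower (before adjustment, 3 higher and 0 lower had p under 0.05; list median 0.13). The share of all tested genes that edgeR called higher was 1.5%. The called gene of this list was Socs3, a feedback inhibitor that STAT3 induces downstream of gp130. It had 12, 12.8 and 14.2 FPKM in cKO testes, against 6.92, 8.27 and 6.80 FPKM in WT testes (log2 fold change 0.82, SE 0.145, edgeR adjusted p = 0.00966). The groups did not overlap, nor did they for 21.6% of all tested genes. The call was lost without cKO library 3 (edgeR adjusted p = 0.0684), WT library 1 (0.0656) or WT library 3 (0.0681), with log2 fold changes of 0.75 to 0.92 over the 16 fits. Whether LIF had a part in the level of Socs3 was not tested. Stat3 itself had 13.9, 13.1 and 15.2 FPKM in cKO testes and 10.1, 11.4 and 11.7 FPKM in WT testes (0.34, edgeR adjusted p = 0.166). Cntfr, the receptor of ciliary neurotrophic factor, stood at 0.33 (edgeR adjusted p = 0.243), and Il6st, which encodes gp130 and was chosen after its values were seen, at 0.13 (edgeR adjusted p = 0.79).

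**Figure D3:**
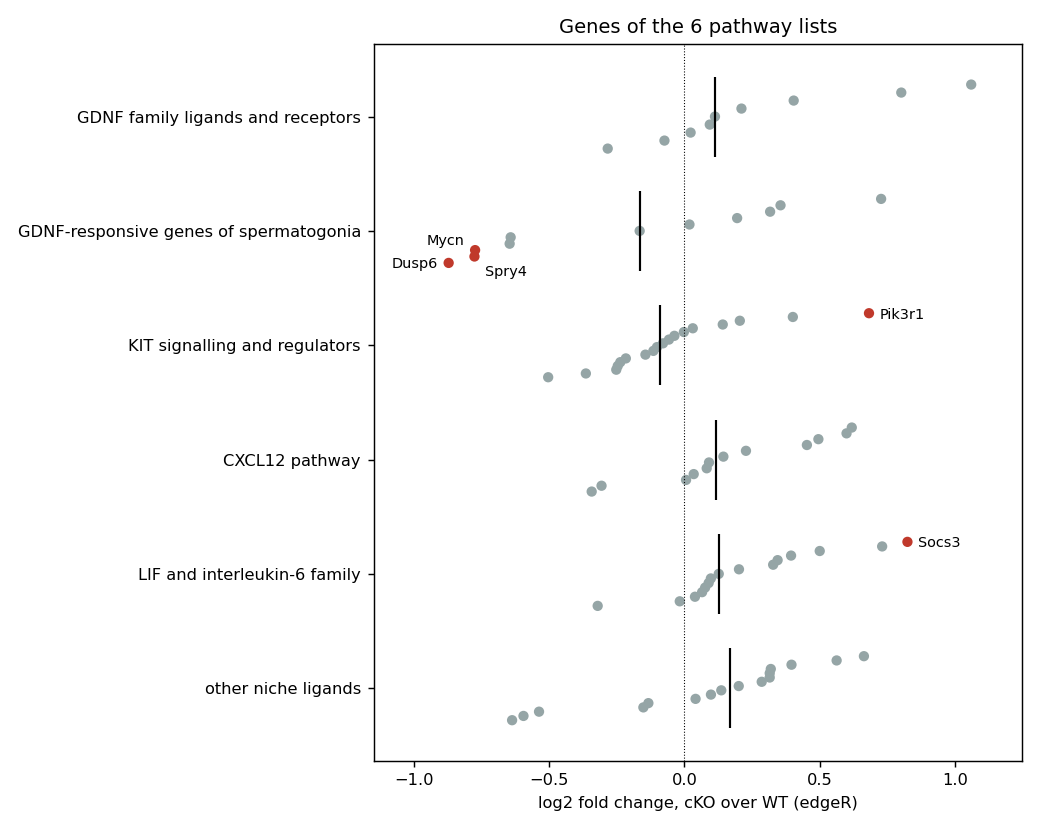
Log2 fold changes, cKO over WT (horizontal axis), of the tested genes of 6 pathway lists, 1 point per gene and spread vertically by rank. Red points were called by edgeR, vertical lines are list medians, and the called genes are Dusp6, Mycn and Spry4 below 0 and Pik3r1 and Socs3 above 0.

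The balance of each ligand with its receptor was set out as the log2 ratio of FPKM plus 0.1, so that the 2 transcripts of a pair were measured in the same library. These ratios are made from the FPKM values given above and are no independent result. In cKO testes Gdnf exceeded Gfra1 by 1.37, 1.13 and 0.75 on the log2 scale, against 3.13, 3.91 and 3.35 in WT testes. The difference of the means was -2.38, and the groups did not overlap. That followed from the values above, with Gdnf lower and Gfra1 higher in every cKO library than in any WT library. Relative to Ret, Gdnf stood at 1.96, 1.2 and 1.07 in cKO testes, against 2.68, 3.03 and 2.63 in WT testes, a difference of -1.37. Lif stayed far below Lifr in every library, at -3.01, -2.40 and -3.36 in cKO testes against -4.95, -4.77 and -5.10 in WT testes, a difference of 2.01. Each of these 3 differences had a two-sided exact permutation p = 0.1, the smallest that 3 against 3 libraries allow (0.167 adjusted over the 5 ratios). Kitl over Kit averaged 1.88 ± 0.403 in cKO testes and 1.79 ± 0.355 in WT testes (SD, n = 3 each; exact permutation p = 0.7). Cxcl12 over Cxcr4 averaged 1.79 ± 0.419 in cKO testes and 2.30 ± 0.408 in WT testes (SD, n = 3 each; exact permutation p = 0.3). For these 2 pairs the libraries of the groups overlapped.

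**Figure D4:**
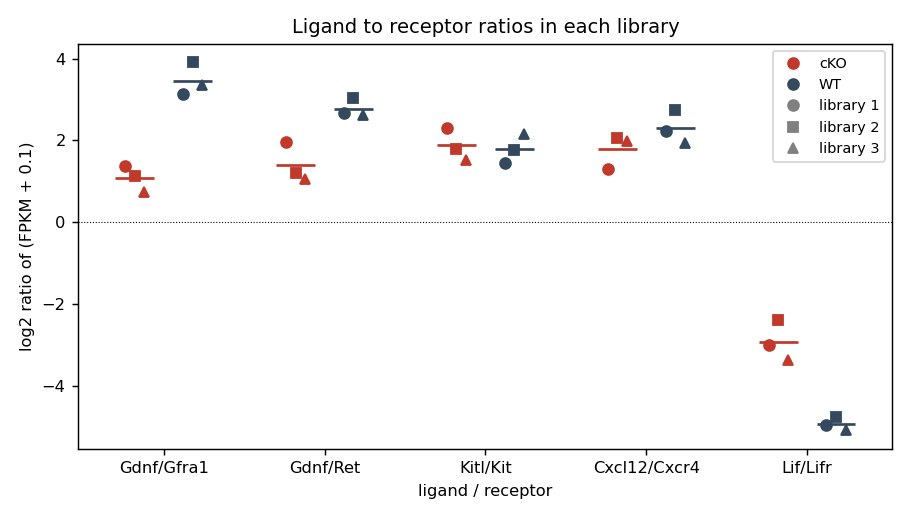
Log2 ratio of ligand to receptor, each as FPKM plus 0.1 (vertical axis), for 5 pairs in 3 cKO (red, left) and 3 WT (dark, right) libraries. Short lines are group means, and cKO and WT libraries stand apart for Gdnf/Gfra1, Gdnf/Ret and Lif/Lifr.

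Among 16 tested genes for other ligands of the germ cell niche none was called by edgeR or limma-voom, and DESeq2 called 2 higher (before adjustment, 2 higher and 1 lower had p under 0.05; list median 0.17). Nrg1, neuregulin 1, a ligand of ERBB receptors, had 24.3, 15.6 and 21.7 FPKM in cKO testes, against 12, 14.4 and 12.4 FPKM in WT testes (log2 fold change 0.66, edgeR adjusted p = 0.0718; 0.83 and 0.00558 without cKO library 2). Igf1, insulin-like growth factor 1, had 34.3, 23.8 and 28.3 FPKM in cKO testes, against 16.0, 20.4 and 21.9 FPKM in WT testes (0.56, edgeR adjusted p = 0.0972; 0.69 and 0.0257 without cKO library 2). Fgf8, a fibroblast growth factor, stood at -0.60 (edgeR adjusted p = 0.315).

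Some facts of the whole series bear on these values. Gene counts summed to 15092619 to 17431546 per library. Csnk1a1, which encodes CK1α, had 396, 405 and 377 CPM in cKO and 371, 396 and 348 CPM in WT (log2 fold change 0.080, edgeR adjusted p = 0.798), and as the labels do not state which part of the gene is deleted, its level does not check them. The 7 fetal Leydig cell markers included none called by edgeR (before adjustment, 4 higher and 0 lower had p under 0.05; 2 higher by DESeq2 and 1 by limma-voom; median 0.40), with Cyp17a1 and Insl3 the most abundant at 0.25 and 0.64. The 7 interstitial progenitor markers had a median of 0.41, with Tcf21 and Pdgfra the most abundant at 0.44 and 0.41. Of the mast cell markers, Hdc and Tpsb2 were the most abundant, and Hdc alone was called (log2 fold change 1.29, edgeR adjusted p = 0.0136; Tpsb2 0.85, 0.589). Among 6 tested markers of nerve and glia 1 was higher and 1 lower, with Ngfr, the most abundant, called higher at 0.62 and Sox10 called lower at -1.85, and among 8 of the mesonephros and ducts 1 was higher, with Krt8 and Emx2 the most abundant at -0.56 and 1.06. Beside these counts, edgeR called 1.5% of all tested genes higher and 1.84% lower. The part of these cell types in the values of the niche genes was not tested.

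Patterns nearest to the 7 uncalled genes were found in the same way. They were Rgs16 for Gfra1 (root mean square difference 0.0831), Ccdc92b for Ret (0.0465), Chp1 for Kitl (0.0459), Rpl13a for Kit (0.0541), Zfp788 for Cxcl12 (0.0379), Slc1a4 for Cxcr4 (0.105) and Sema3a for Lifr (0.0288). The next nearest were Cpne7 (0.0875), Sipa1l3 (0.0586), Pgbd1 (0.0598), Acbd6 (0.0558), Cdk7 (0.0455), Magel2 (0.131) and Magi2 (0.0349), in the same order. EdgeR called none of these 14 genes, and genes with small changes are close to many others by this measure.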

How the data were processed

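The authors deposited a table of counts and a table of FPKM for 3 cKO and 3 WT libraries. The deposited counts are whole numbers per gene and were not normalised, and the deposited FPKM were scaled by the authors to gene length and library size, per the file headers. The submitters' processing notes name HISAT2 2.0.5 and GRCm38, while 41096 of 42747 rows carry C57BL/6NJ gene identifiers. Gene positions therefore refer to C57BL/6NJ and promoter windows to GRCm38.p6. No source used here names the counting tool or its strand setting. The 18383 genes kept by filterByExpr were fitted in R 4.3.3 with edgeR 4.0.16 (TMM scaling, quasi-likelihood fit on group alone), and p was adjusted by Benjamini-Hochberg across them, with calls under 0.05. Each SE is the absolute log2 fold change over the square root of F. The biological coefficient of variation was 19.7%. Library totals ran from 15092619 to 17431546, and a tested gene had a median of 282 to 329 counts. The procedure was also run on counts simulated from its own fitted dispersions. The outcome is not reported here and lends no support to any gene above. Replicates of a group, 3 mice each by the series design, differed by more than sampling noise (chi-square divided by its degrees of freedom 13.6 to 40.9).

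The members and gene lists were chosen with earlier results of these data known. Of 180 listed symbols 178 were matched, 1 through a synonym (Grk2 as Adrbk1). The genes named are the 9 members, Csnk1a1, the called genes of 6 pathway lists (filled up to 3 by smallest p), the 2 most abundant of each cell type list, and the 2 protein-coding genes nearest to each member in pattern. Nearness is the root mean square difference of centred log2 CPM (prior count 2) among genes averaging 5 CPM or more. Some genes that this rule picks are not reported here. Any other gene named was chosen after its values were seen. Alternatives were 3 other scalings, DESeq2 1.42.0, limma 3.58.1 (voom, and log2 FPKM with 2 pseudocounts), 2 other filters, a replicate block and each library left out.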

Additional observations from a re-analysis of the deposited data

How the results depend on the processing

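Gdnf was called lower in all 16 alternative fits (log2 fold change -1.95 to -1.52, adjusted p 1.28e-18 to 0.00588) and Lif higher in all 16 (0.82 to 2.36, adjusted p 1.01e-06 to 0.0292). The lowest Lif value, 0.82, came from log2(FPKM + 1), whose pseudocount exceeds its WT level. Cxcr4 was called with no low-count filter (0.62, adjusted p = 0.017), which made 2 members higher. The sign of Cxcl12 changed with library totals alone (-0.0077), limma-voom (-0.0028), the replicate block (-0.0017), without cKO library 1 (-0.14) and without WT library 3 (-0.034), within a range of -0.14 to 0.16 over all 16 fits, and the cause was not tested. Kitl/Kit turned to -0.12 without cKO library 1 and -0.081 without WT library 1, with 0.27 the highest value when 1 library was left out. Lif/Lifr was 0.96 with a pseudocount of 1. Over all genes, 527 were higher and 574 lower by DESeq2, 149 and 223 with log2(FPKM + 0.1), 156 higher with log2(FPKM + 1), and 613 higher and 651 lower with no filter. With 1 library left out, 105 to 342 were higher and 167 to 399 lower. The counts moved by over 1.5 times without cKO library 3 (134 higher, 170 lower), WT library 1 (105 and 218), WT library 2 (180 and 190) or WT library 3 (105 and 167). For the lists, DESeq2 called 1 higher in the GDNF family, 1 among GDNF-responsive genes, 1 in the CXCL12 pathway and 2 among other niche ligands. With no filter 1 was higher in the CXCL12 pathway and 2 among other niche ligands. With either FPKM pseudocount KIT signalling had 0 higher and GDNF-responsive genes had 2 lower. With 1 library left out, the list counts ran from 0 to 1 higher (KIT signalling, LIF family), 0 to 2 higher (other niche ligands) and 0 to 3 lower (GDNF-responsive genes).

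Same-numbered libraries of the groups did not all deviate together (correlations of deviations 0.017, 0.18 and 0.032), and cKO library 1 correlated best with WT library 3 (0.16), so the numbers were not taken to pair the mice. With the replicate number as a block, 324 genes were higher and 372 lower, and Gdnf and Lif were both called. For the ratios the block gives the same differences by construction, and its sign-flip exact p = 0.25 for both Gdnf ratios and Lif/Lifr is the smallest that 3 pairs allow, so it says nothing about stability. Lif in WT rests on 18 or 19 counts a library, and Ret and Gfra1 on fewer than 200 in any, which limits their precision.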
